A study of Mus musculus with 6 samples.

Results

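The 10 genes described here form the ligand, receptor and transcription factor core of type 2 immunity: the alarmins Il33 and Tslp, the IL-33 receptor Il1rl1 (ST2), the cytokines Il4, Il5 and Il13, the transcription factor Gata3, and the IL-4 and IL-13 receptor chains Il4ra, Il13ra1 and Il13ra2. They were taken by name and not by a rule on their values, but with earlier results of these data known. All 10 were found among the 49315 genes of the count table. RNA was sequenced from lung cells of male C57BL/6 mice (C57BL/6J in the study's methods) that had received saline (sham) or bleomycin (BLM), an antibiotic that damages DNA and scars the lung, by oropharyngeal instillation. The study collected the lungs some weeks after instillation. From each treatment the dissociated lung cells were kept whole (unsorted) or sorted on Lamp1, a lysosomal membrane protein that was stained at the cell surface, into Lamp1-depleted and Lamp1-enriched cells. The study asked whether surface Lamp1 marks senescent cells in fibrotic lung. There was 1 library for each of the 6 conditions. The lungs of several mice of a group were pooled, no age is given in the sources used here, and all mice were of the same strain with no transgene.

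Total counts ranged from 30236120 to 52918696 reads per library. The BLM Lamp1-depleted library stood apart, because 38.4% of its reads fell on a single gene, Gm26917, against 0.884 to 7.1% in the other 5 libraries. That library also had the lowest number of genes with 10 reads or more, 17870 against 20006 to 21842, and its scaled size was the smallest, so that 3 reads correspond to 0.142 CPM there against 0.055 to 0.076 CPM elsewhere. Levels are therefore given as reads and as CPM, read counts per 1000000 counts of the library after trimmed mean of M-values (TMM) scaling. Because animals were pooled and no condition was repeated, each ratio compares libraries and not conditions, and its 95% interval covers counting error only. The unsorted library did not always lie between the sorted libraries of its treatment, so it is not read as their mix. In BLM, Gata3 had 13.3 CPM unsorted against 32 CPM in Lamp1-depleted and 28 CPM in Lamp1-enriched cells. Il13ra1 had 134 CPM against 25.7 and 81.4 CPM in the same order, whereas Il1rl1 lay between, at 6.95 CPM against 13.8 and 2.38 CPM. Il4ra lay below both sorted libraries in each treatment. Markers of lung tissue were present in all 6 libraries, including 7 of 7 alveolar type 2 epithelial and 6 of 6 endothelial genes above 3 reads. Lamp1 mRNA was at 491 CPM in sham Lamp1-enriched and 146 CPM in sham Lamp1-depleted cells, and at 378 and 111 CPM in the BLM libraries in the same order.

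Type 2 immunity is the arm of the immune system that deals with helminths, allergens and tissue repair. IL-33 and TSLP are stored or made by epithelial, endothelial and stromal cells and are released on damage, and they act on group 2 innate lymphoid cells, T helper 2 cells, regulatory T cells, mast cells and basophils, many of which carry ST2. The lymphocytes among them depend on the transcription factor GATA3 and secrete IL-4, IL-5 and IL-13. IL-5 sustains eosinophils, while IL-4 and IL-13 bind receptors built on the IL-4 receptor alpha chain, signal through STAT6, and turn macrophages, epithelium and fibroblasts to a repair program. IL-13 receptor alpha 2 binds IL-13 tightly and is widely regarded as a decoy.

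Promoter windows of RefSeq on GRCm38.p6 each reached from 250 bases before to 50 bases after an annotated start. No Tslp window was searched, so nothing is said here about its promoter. For the other 9 of the 10 genes, 12 windows were used. They were searched on both strands for 4 spellings of the motif bound by the family of Gata3, AGATAA with its variant AGATAG as well as TGATAA with its variant TGATAG, and for TTCNNNNGAA, the spacing bound by STAT6. GATA letters stood in 8 of the 12 windows, against 29.8% of all 32851 windows, and the STAT6 letters in 2 of 12, against 6.95% of all windows. Il1rl1 held the most matches, with 5 in its first window and 1 in its second. The windows of Il4, Il5, Il13, Gata3 and Il13ra2 held 1 each, 2 windows in the case of Il4, and those of Il33, Il4ra and Il13ra1 held none. The STAT6 letters stood in the first Il33 window and the second Il4 window. Il33 and Il1rl1 are shown because this ligand and its receptor had opposite levels in the sorted cells, with the STAT6 letters (Il33) and the GATA letters of either strand (Il1rl1) in capitals. The Il33 window lies at chr19:29924863-29925162 and the Il1rl1 windows at chr1:40429320-40429619 and chr1:40439379-40439678, all on the plus strand. A match describes the letters and not binding.
Il33 window 1: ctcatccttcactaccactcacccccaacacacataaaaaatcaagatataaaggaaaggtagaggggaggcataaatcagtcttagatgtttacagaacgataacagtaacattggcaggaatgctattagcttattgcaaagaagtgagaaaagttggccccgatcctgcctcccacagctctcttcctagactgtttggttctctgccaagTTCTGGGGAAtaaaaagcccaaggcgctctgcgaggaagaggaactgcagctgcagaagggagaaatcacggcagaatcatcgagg
Il1rl1 window 1: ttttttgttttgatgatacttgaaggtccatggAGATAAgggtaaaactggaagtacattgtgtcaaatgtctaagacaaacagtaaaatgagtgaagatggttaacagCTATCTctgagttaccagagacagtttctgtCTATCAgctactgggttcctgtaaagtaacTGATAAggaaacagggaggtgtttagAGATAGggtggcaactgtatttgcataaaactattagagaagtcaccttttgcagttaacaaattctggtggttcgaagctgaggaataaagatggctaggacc
Il1rl1 window 2: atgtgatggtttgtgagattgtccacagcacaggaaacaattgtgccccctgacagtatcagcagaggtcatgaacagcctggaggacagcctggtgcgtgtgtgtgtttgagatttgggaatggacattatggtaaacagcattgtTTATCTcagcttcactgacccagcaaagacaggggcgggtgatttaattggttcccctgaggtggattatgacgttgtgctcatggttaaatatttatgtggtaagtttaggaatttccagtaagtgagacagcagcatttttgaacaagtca

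The genes lie on 7 chromosomes of GRCm38. Il4 (11:53602982-53618669, minus strand), Il13 (11:53631324-53634702, minus) and Il5 (11:53720794-53725106, plus) share the type 2 cytokine locus, which spans 122125 bases from the first to the last of the 3 genes. Il33 lies at 19:29925114-29960718 (plus), Il1rl1 at 1:40429570-40465415 (plus), Gata3 at 2:9857078-9890034 (minus) and Il4ra at 7:125552120-125579474 (plus). Il13ra1 (X:36112110-36171259, plus) and Il13ra2 (X:147383476-147429192, minus) are both on the X chromosome, and Tslp is on chromosome 18. Counts were made per gene, so the soluble and membrane forms of ST2, which come from the same gene, were counted together.

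To compare genes with each other, CPM was divided by exon length (RPKM, CPM per kilobase of exon). The receptor chain Il4ra had the highest level of the 10 genes in every library, from 33.3 RPKM in sham unsorted to 85.1 RPKM in BLM Lamp1-enriched cells. In sham unsorted cells it was followed by Il13ra1 at 13.2, Gata3 at 7, Il33 at 3.45 and Tslp at 2.27 RPKM, and the counting intervals of these neighbours did not overlap. The cytokines were far lower, with Il4 at 0.688, Il5 at 0.322 and Il13 at 0.0855 RPKM, and Il1rl1 at 0.544 RPKM could not be separated from its neighbours Il4 and Il5. In BLM unsorted cells Il13ra1 had 36.2 RPKM, Gata3 3.35 RPKM and Il33 2.82 RPKM, the last 2 with overlapping intervals, and Il1rl1 at 1.01 RPKM now stood above Tslp at 0.514 RPKM. In Lamp1-depleted cells Il1rl1 held the place behind Il4ra, Il13ra1 and Gata3, at 2.4 RPKM in sham and 2 RPKM in BLM, while Il33 had 0.403 and 0.328 RPKM. In Lamp1-enriched cells Il33 held that place, at 2.97 RPKM in sham and 2.93 RPKM in BLM, and Il1rl1 had 0.252 and 0.346 RPKM. In the sham Lamp1-enriched library the interval of Il33 overlapped that of Tslp at 2.29 RPKM, and in the BLM Lamp1-depleted library Gata3 at 8.06 RPKM and Il13ra1 at 6.92 RPKM could not be ordered. In all 6 libraries Il4ra and Il13ra1 stood above Il4, Il5 and Il13.

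**Figure D1:**
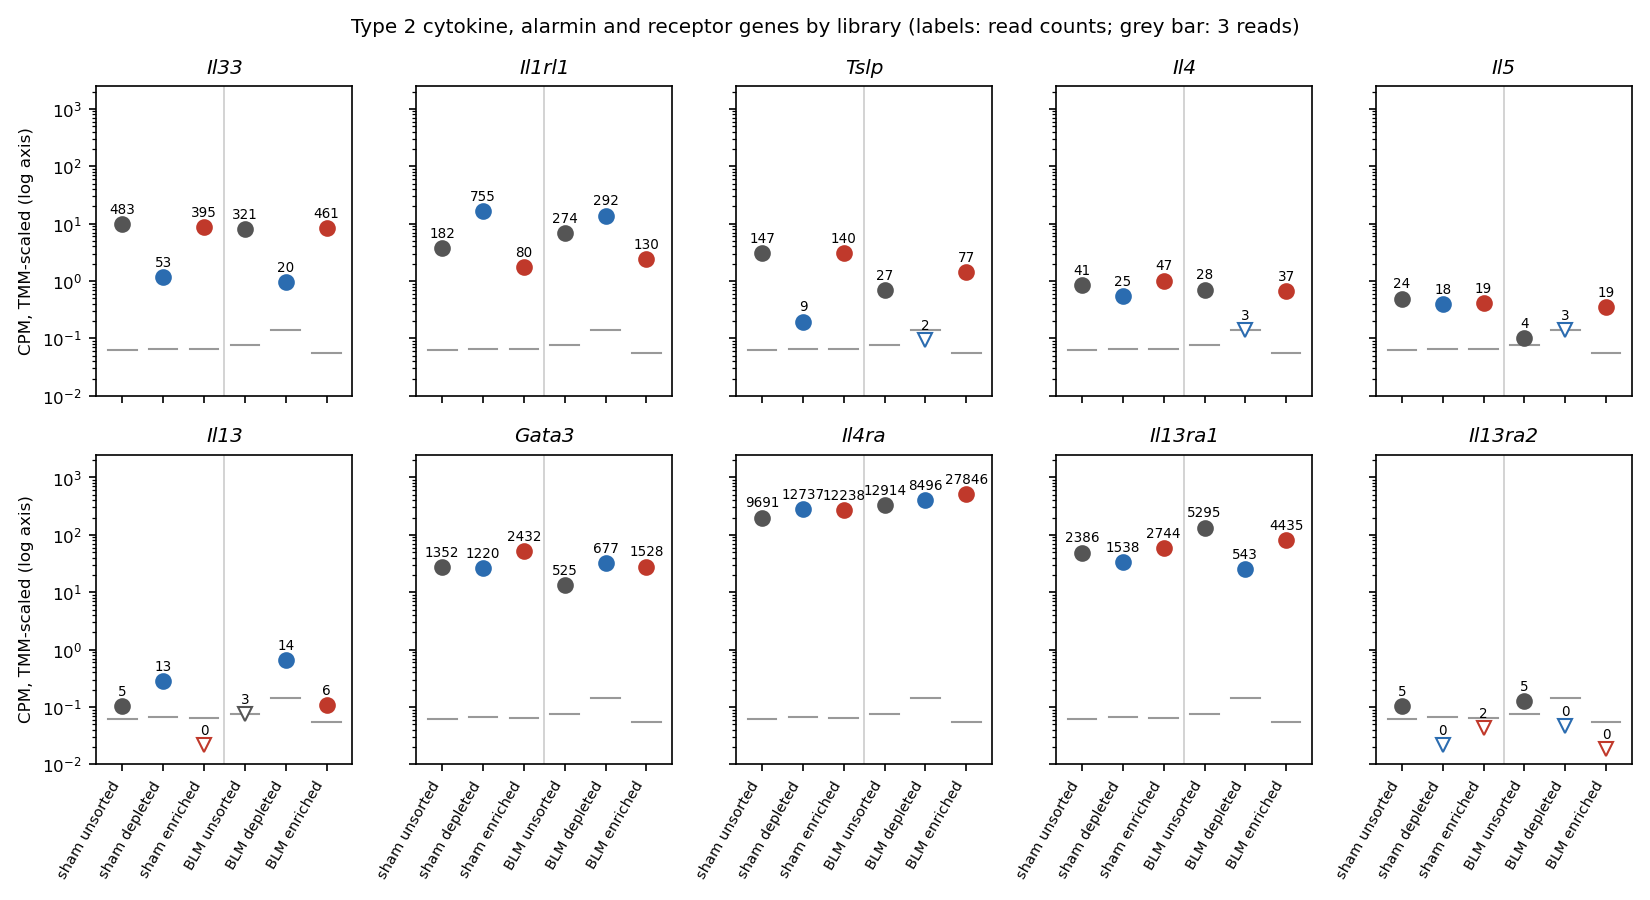
Level of each of the 10 genes in each library, as TMM-scaled CPM on a log axis, with the read count printed at each point. Grey points are unsorted, blue Lamp1-depleted and red Lamp1-enriched cells, open triangles mark 3 reads or fewer (a gene with 0 reads is drawn at the level of 1 read), and the grey bar is the level of 3 reads. Il33 and Tslp lie lowest and Il1rl1 highest in the blue points of both treatments.

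Il33, the nuclear alarmin, was spread unevenly between the sorted cells of both treatments. It had 483 reads (9.95 CPM) in sham unsorted, 53 reads (1.16 CPM) in sham Lamp1-depleted and 395 reads (8.58 CPM) in sham Lamp1-enriched cells. In BLM it had 321 reads (8.14 CPM) in unsorted, 20 reads (0.947 CPM) in Lamp1-depleted and 461 reads (8.46 CPM) in Lamp1-enriched cells. The unsorted and Lamp1-enriched libraries were close to each other, and both Lamp1-depleted libraries were low. The Lamp1-enriched over Lamp1-depleted ratio was 2.87 on the log2 scale in sham (interval 2.47 to 3.33, 7.32-fold) and 3.14 in BLM (2.52 to 3.88, 8.84-fold). BLM over sham was log2 -0.29 in unsorted (-0.50 to -0.08), -0.29 in Lamp1-depleted (-1.12 to 0.47) and -0.02 in Lamp1-enriched cells (-0.22 to 0.18), and only the unsorted interval excluded 0. Scaled by total counts only, the unsorted ratio was -0.55 and the Lamp1-depleted ratio -1.0.

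Tslp, the other alarmin, had the same order between sorted cells and was also lower in BLM. It had 147 reads (3.03 CPM) in sham unsorted, 9 reads (0.197 CPM) in sham Lamp1-depleted and 140 reads (3.04 CPM) in sham Lamp1-enriched cells. In BLM it had 27 reads (0.684 CPM), 2 reads (0.0947 CPM) and 77 reads (1.41 CPM) in the same order. The Lamp1-enriched libraries were above the Lamp1-depleted ones by log2 3.87 in sham (2.98 to 5.10, 14.6-fold) and 3.74 in BLM (2.00 to 6.97, 13.4-fold, on 2 reads in the lower library). BLM unsorted was below sham unsorted by 4.37-fold (log2 -2.13, -2.79 to -1.55), and BLM Lamp1-enriched below sham Lamp1-enriched by 2.14-fold (log2 -1.10, -1.53 to -0.70). In Lamp1-depleted cells both libraries had too few reads for the ratio to be counted. Beside these values, the summed level of 7 alveolar type 2 epithelial markers was 1440 CPM in sham and 366 CPM in BLM unsorted cells, 1050 and 336 CPM in Lamp1-enriched cells and 248 and 147 CPM in Lamp1-depleted cells, with none of the 7 at 0. All 7 were lower in BLM in unsorted and Lamp1-enriched cells, and 6 of 7 in Lamp1-depleted cells. The sizes differed, as in unsorted cells Sftpc went from 779 to 98.9 CPM and Abca3 from 107 to 105 CPM. The part of alveolar type 2 cells in the Tslp ratios was not tested. In bulk RNA of this kind, fewer cells of a type and less RNA per cell cannot be told apart.

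Il1rl1, which encodes the IL-33 receptor ST2, had the reverse order of its ligand. It had 182 reads (3.75 CPM) in sham unsorted, 755 reads (16.6 CPM) in sham Lamp1-depleted and 80 reads (1.74 CPM) in sham Lamp1-enriched cells. In BLM it had 274 reads (6.95 CPM), 292 reads (13.8 CPM) and 130 reads (2.38 CPM) in the same order. The highest level of each treatment was in Lamp1-depleted cells, and the lowest in Lamp1-enriched cells. The Lamp1-enriched library was 9.47-fold lower than the Lamp1-depleted library in sham (log2 -3.24, -3.60 to -2.92) and 5.77-fold lower in BLM (log2 -2.53, -2.84 to -2.23). BLM over sham was 0.89 on the log2 scale in unsorted cells (0.61 to 1.17, 1.85-fold), 0.45 in Lamp1-enriched cells (0.04 to 0.88) and -0.26 in Lamp1-depleted cells (-0.46 to -0.06). T cell markers, 7 genes of which none was at 0, summed to 493 CPM in sham Lamp1-depleted against 24.9 CPM in sham Lamp1-enriched cells, and to 376 against 13.8 CPM in BLM. The B cell markers followed the same order, from 2660 down to 143 CPM in sham and from 1100 down to 55.3 CPM in BLM. The part of these cells in the Il1rl1 ratios was not tested.

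Il4, the cytokine of T helper 2 cells and basophils, was low in every library. It had 41 reads (0.845 CPM) in sham unsorted, 25 reads (0.548 CPM) in sham Lamp1-depleted and 47 reads (1.02 CPM) in sham Lamp1-enriched cells, and 28 reads (0.71 CPM), 3 reads (0.142 CPM) and 37 reads (0.679 CPM) in BLM. The low value was that of BLM Lamp1-depleted cells, in the library where 3 reads correspond to 0.142 CPM. Lamp1-enriched over Lamp1-depleted was log2 0.88 in sham (0.17 to 1.66) and 2.17 in BLM (0.60 to 4.60, 4.49-fold). BLM over sham was log2 -0.25 in unsorted (-1.0 to 0.48), -1.87 in Lamp1-depleted (-4.32 to -0.24, 3.64-fold lower) and -0.58 in Lamp1-enriched cells (-1.25 to 0.06).

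Il5, the growth factor of eosinophils, had 24 reads (0.494 CPM) in sham unsorted, 18 reads (0.395 CPM) in sham Lamp1-depleted and 19 reads (0.413 CPM) in sham Lamp1-enriched cells. In BLM it had 4 reads (0.101 CPM), 3 reads (0.142 CPM) and 19 reads (0.349 CPM) in the same order. The 3 sham libraries were alike, and of the BLM libraries the Lamp1-enriched one was nearest to them. BLM unsorted was 4.47-fold below sham unsorted (log2 -2.16, -4.27 to -0.74). The other Il5 ratios had intervals that included 0, namely BLM over sham in Lamp1-depleted (log2 -1.40, -3.88 to 0.30) and Lamp1-enriched cells (-0.24, -1.24 to 0.75), and Lamp1-enriched over Lamp1-depleted in sham (0.06, -0.94 to 1.08) and BLM (1.23, -0.47 to 3.70). The antisense gene Gm12214 overlaps 27.1% of the Il5 exon bases, and since the strand setting of the counting is not stated, reads of both genes cannot be told apart there.

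Il13, the cytokine tied most closely to mucus and fibrosis, was at the edge of detection. In sham it had 5 reads (0.103 CPM) unsorted, 13 reads (0.285 CPM) in Lamp1-depleted and 0 reads in Lamp1-enriched cells, and in BLM it had 3 reads (0.076 CPM), 14 reads (0.663 CPM) and 6 reads (0.11 CPM). Both Lamp1-depleted libraries were the highest of their treatment. In sham, Lamp1-enriched cells were 4.37-fold lower than Lamp1-depleted cells with the floor of 3 reads set for 0 reads (interval up to log2 -1.62). In BLM they were 5.54-fold lower (log2 -2.47, -4.26 to -1.12). BLM over sham was log2 1.18 in Lamp1-depleted cells (0.02 to 2.42, 2.27-fold), on 14 against 13 reads in libraries of unequal depth. Under total counts only it was 0.48, below 2-fold. The other 2 BLM over sham pairs had too few reads to be counted.

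Gata3, the lineage factor of type 2 lymphocytes, which is also active in endothelium, was well measured. It had 1352 reads (27.8 CPM) in sham unsorted, 1220 reads (26.8 CPM) in sham Lamp1-depleted and 2432 reads (52.9 CPM) in sham Lamp1-enriched cells. In BLM it had 525 reads (13.3 CPM), 677 reads (32 CPM) and 1528 reads (28 CPM) in the same order. The sham Lamp1-enriched library was the high one and the BLM unsorted library the low one. BLM unsorted was 2.09-fold lower than sham unsorted (log2 -1.06, -1.21 to -0.92), and BLM Lamp1-enriched 1.89-fold lower than sham Lamp1-enriched (log2 -0.91, -1.01 to -0.82). In Lamp1-depleted cells BLM over sham was log2 0.26 (0.12 to 0.40), a direction that turned to -0.46 when libraries were scaled by total counts only. Lamp1-enriched over Lamp1-depleted was log2 0.98 in sham (0.88 to 1.08) and -0.19 in BLM (-0.32 to -0.06), the latter turning to 0.37 under total counts only. Endothelial markers, 6 genes of which none was at 0, summed to 4900 CPM in sham and 2850 CPM in BLM unsorted cells, 7760 and 7470 CPM in Lamp1-enriched cells, and 1160 and 800 CPM in Lamp1-depleted cells. All 6 were lower in BLM in unsorted and in Lamp1-depleted cells. In Lamp1-enriched cells 3 were higher and 3 lower, with Cdh5 going from 2480 to 2770 CPM and Kdr from 1310 to 911 CPM. The part of endothelial cells in the Gata3 levels was not tested.

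Il4ra, the chain shared by both IL-4 and IL-13 receptors, was the most highly counted of the 10 genes. It had 9691 reads (200 CPM) in sham unsorted, 12737 reads (279 CPM) in sham Lamp1-depleted and 12238 reads (266 CPM) in sham Lamp1-enriched cells, and 12914 reads (327 CPM), 8496 reads (402 CPM) and 27846 reads (511 CPM) in BLM. Each BLM library was above its sham counterpart. The ratio was log2 0.71 in unsorted (0.68 to 0.75, 1.64-fold) and 0.94 in Lamp1-enriched cells (0.91 to 0.97, 1.92-fold). In Lamp1-depleted cells it was log2 0.53 (0.49 to 0.57), which became -0.19 under total counts only. Between sorted cells the differences were small, at log2 -0.07 in sham (-0.11 to -0.04) and 0.35 in BLM (0.31 to 0.38). The antisense gene Gm44876 overlaps 9.51% of the Il4ra exon bases.

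Il13ra1, which joins Il4ra in the receptor for both cytokines on non-lymphoid cells, had its highest level in BLM unsorted cells. It had 2386 reads (49.1 CPM) in sham unsorted, 1538 reads (33.7 CPM) in sham Lamp1-depleted and 2744 reads (59.6 CPM) in sham Lamp1-enriched cells, and 5295 reads (134 CPM), 543 reads (25.7 CPM) and 4435 reads (81.4 CPM) in BLM. In both treatments the Lamp1-depleted library was the lowest. BLM over sham was log2 1.45 in unsorted (1.38 to 1.52, 2.73-fold), 0.45 in Lamp1-enriched (0.38 to 0.52, 1.36-fold) and -0.39 in Lamp1-depleted cells (-0.54 to -0.25). Lamp1-enriched over Lamp1-depleted was log2 0.82 in sham (0.73 to 0.91, 1.77-fold) and 1.66 in BLM (1.53 to 1.79, 3.16-fold). Total counts only moved the Lamp1-depleted ratio of BLM over sham by log2 -0.72, to past 2-fold lower. The same scaling moved the BLM ratio between sorted cells by 0.56. Macrophage markers, 7 genes of which none was at 0, summed to 221 CPM in sham and 1200 CPM in BLM unsorted cells, against 153 and 212 CPM in Lamp1-enriched and 105 and 124 CPM in Lamp1-depleted cells. All 7 were higher in BLM in unsorted cells and 6 of 7 in Lamp1-enriched cells, where Mertk alone went from 114 to 79.4 CPM while Mrc1 went from 18.9 to 59.4 CPM and C1qa from 1.26 to 17.1 CPM. The part of macrophages in the Il13ra1 ratios was not tested. Il13ra2, the decoy receptor, was hardly detected, with 5 reads in each unsorted library, 2 reads in sham Lamp1-enriched cells and 0 reads in the other 3 libraries, so no ratio was counted.

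The members were next set beside all genes, counting a gene when it had 10 reads or more in the higher library and differed by at least 2-fold. In unsorted cells, BLM over sham, 1 of 8 members was higher (Il13ra1) and 3 were lower (Tslp, Il5 and Gata3), beside 13.9% higher and 16% lower among 22772 genes. In Lamp1-depleted cells 1 of 8 was higher (Il13) and 2 were lower (Il4 and Il5), beside 13.7% higher and 22.3% lower among 20852 genes. In Lamp1-enriched cells 0 of 8 were higher and 1 was lower (Tslp), beside 10.2% higher and 7.81% lower among 21671 genes. Over the members counted, the log2 ratios had medians of -0.27, -0.28 and -0.13 in these 3 comparisons, and over all genes counted they were -0.07, -0.21 and -0.00. Scaled by total counts only, 0 members were higher and 4 lower in Lamp1-depleted cells. The 8 members that had enough reads were not the same ones each time, and with counts this small nothing is read from them against the shares over all genes.

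Between sorted cells more genes of every kind differed. In sham, 2 of 9 members were higher in Lamp1-enriched cells (Il33 and Tslp) and 2 lower (Il1rl1 and Il13), beside 27.5% higher and 25.2% lower among 21867 genes. In BLM, 5 of 9 were higher (Il33, Tslp, Il4, Il5 and Il13ra1) and 2 lower (Il1rl1 and Il13), beside 34.4% higher and 22.6% lower among 21838 genes. The member medians were 0.82 and 1.23 on the log2 scale, beside -0.01 and 0.29 for all genes. The BLM count was 4 when 50 reads were asked for, since Il4, Il5 and Il13 then dropped out. Tslp, Il4 and Il5 had only 2, 3 and 3 reads in the BLM Lamp1-depleted library, and the Il5 interval included 0.

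**Figure D2:**
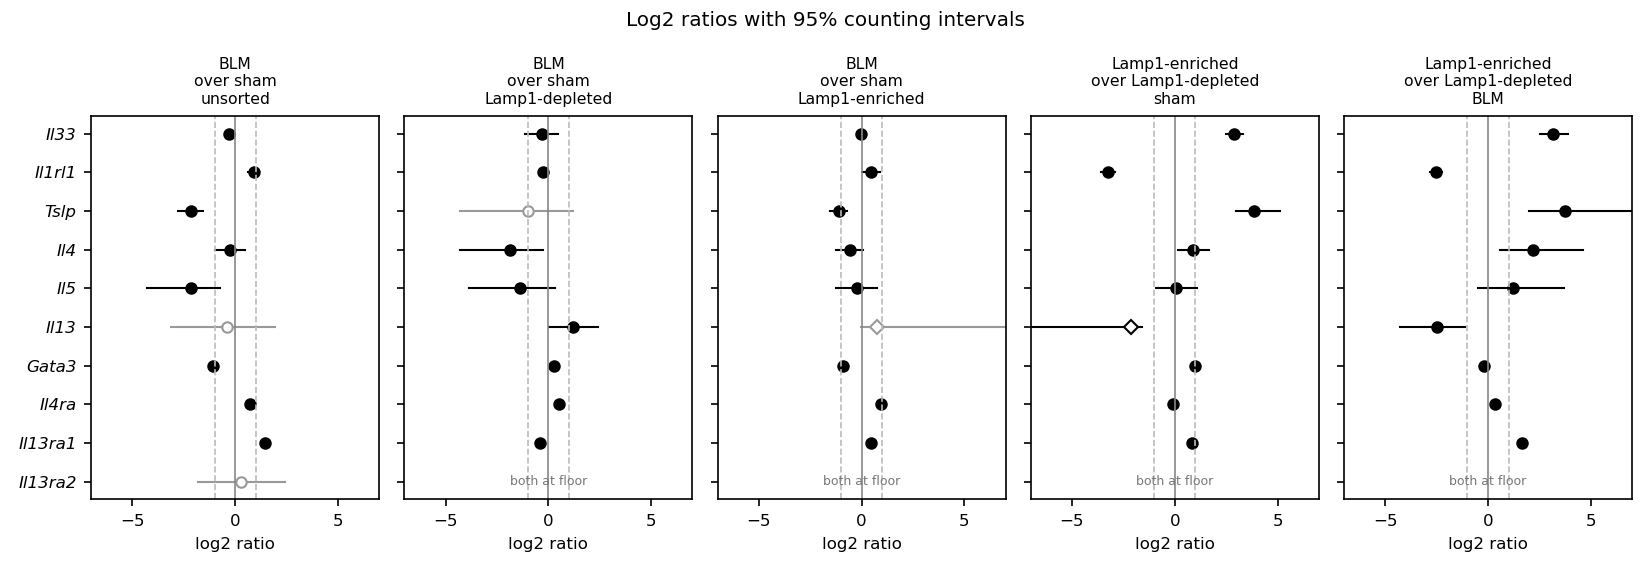
Log2 ratio of each of the 10 genes in the 5 comparisons, with 95% counting intervals as bars. Filled points had 10 reads or more in the higher library, grey open points had fewer, diamonds are bounds against a library with 0 reads, and dashed lines mark 2-fold. Il33 and Tslp lie beyond 2-fold on the right and Il1rl1 and Il13 on the left in both sorting comparisons.

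The sorting difference was the only one seen in 2 separate groups of mice, sham and BLM. It was tested with the edgeR quasi-likelihood test on the 4 sorted libraries, treatment being the block. Nothing separates the animals within a pool, so its p-values do not measure the spread between mice. The test gave no weight to a gene's own spread between the libraries and used a spread estimated over all genes. Of 9 members tested, 3 were higher in Lamp1-enriched cells and 2 lower at an adjusted p under 0.05, beside 21.5% (4422) higher and 19.2% (3964) lower among 20593 genes. Scaled by total counts only, 2 members were higher and 1 lower, beside 2872 and 1564 of all genes. Il33 rose by log2 2.92 (Benjamini-Hochberg adjusted p 1.64e-07 in the quasi-likelihood test, between 1.04e-07 and 0.000792 over the alternatives), Tslp rose by 3.83 (adjusted p 6.74e-05, 4.96e-05 to 0.00219) and Il1rl1 fell by 2.99 (adjusted p 3.01e-10, 1.23e-10 to 0.00203). Each of the 3 had the same direction in sham and BLM, and each was called under all 6 alternatives. Il13ra1 rose by 1.14 (adjusted p 0.00338, 0.00376 to 0.325) and Il13 fell by 3.52 (adjusted p 0.0391, 0.0149 to 0.241), a fitted value that depends on the prior count because the sham Lamp1-enriched library had 0 reads. Il13ra1 was called under 4 of the 6 alternatives and Il13 under 1, and the other 5 libraries without the BLM Lamp1-depleted one gave log2 0.51 for Il13ra1 (adjusted p 0.325) and -3.18 for Il13 (adjusted p 0.241). That edgeR fit has a single Lamp1-depleted library, which is assumed to vary like the rest, takes its 1 residual degree of freedom from the unsorted and Lamp1-enriched libraries, and covers 23813 genes. It is thus another model and not the same test on fewer libraries. Gata3 was not called, at log2 0.30 (adjusted p 0.522 in the quasi-likelihood test). In the 5-library edgeR fit, whose only Lamp1-depleted library is the sham one, Gata3 was at log2 0.93. Il4 at log2 1.36 (adjusted p 0.274), Il5 at 0.50 (0.768) and Il4ra at 0.04 (0.947) did not pass the edgeR test, and Il13ra2 had too few reads to enter it.

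A list of 12 genes, here called partner chains, was then examined. It also holds chains of related cytokine receptors that are not partners of the member receptors, such as Il9r and Il17ra. All 12 had 10 reads or more in each comparison. In unsorted cells 6 of 12 were higher in BLM and 1 lower, with a median log2 ratio of 0.85, beside 13.9% higher and 16% lower over all genes. Under total counts only it was 4 higher and 2 lower. The largest were Csf2rb2 (6353 against 453 reads, log2 4.11) and Csf2rb (20422 against 2144 reads, 3.55), chains related to or shared by the IL-5, IL-3 and GM-CSF receptors, followed by Il17ra at 1.78 and Il7r, the other chain of the TSLP receptor, at 1.38. Csf2rb and Csf2rb2 are near-identical copies, so the split of reads between them is uncertain. In Lamp1-depleted cells 2 were higher and 4 lower (13.7% and 22.3% over all genes), among the latter Il5ra, the IL-5 receptor chain, with 203 against 1788 reads (log2 -2.03). In Lamp1-enriched cells 2 were higher, Csf2rb2 (1274 against 109 reads, log2 3.30) and Csf2rb (2.67), and 1 lower (10.2% and 7.81% over all genes). Crlf2, the TSLP receptor chain proper, had 799, 877 and 686 reads in sham and 1547, 746 and 1137 reads in BLM, in the order unsorted, depleted, enriched. Il1rap, the partner of ST2, had 1149, 1012 and 1361 reads in sham and 1392, 233 and 1350 reads in BLM.

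Between sorted cells, 8 of 12 partner chains were lower in Lamp1-enriched cells and 1 higher in sham (median log2 -1.77), beside 25.2% lower and 27.5% higher over all genes. In BLM 6 of 12 were lower and 1 higher (median -1.55), beside 22.6% and 34.4% over all genes, and under total counts only 6 were lower and 2 higher. The T and B cell marker sums given beside Il1rl1 lie in the same direction, and their part was not tested. The largest differences in sham were those of Il9r (47 against 1171 reads, log2 -4.64), Il7r (454 against 9890 reads, -4.46), Il5ra (104 against 1788 reads, -4.11) and Il17ra (-3.47), and in BLM Il9r was at -4.63, Il7r at -3.66 and Il5ra at -3.24. In the quasi-likelihood test 8 of 12 fell and 1 rose, beside 19.2% and 21.5% over all genes.

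The signalling list holds 17 kinases, adaptors, STAT factors and inhibitors used by these receptors. In BLM over sham 4 were higher and 1 lower in unsorted cells (median log2 0.49), 3 higher and 1 lower in Lamp1-depleted cells (0.32), and 1 higher and 1 lower in Lamp1-enriched cells (0.09), the shares over all genes being those given above. The direction depended on scaling, with 1 higher and 2 lower in unsorted and 1 higher and 6 lower in Lamp1-depleted cells under total counts only. The insulin receptor substrates, which IL-4 receptors also use, went apart in unsorted cells, with Irs1 at 467 against 2020 reads (log2 -1.81) and Irs2 at log2 1.37. Stat6 itself, the factor downstream of Il4ra, was at log2 0.67 in unsorted, 0.41 in Lamp1-depleted and 0.15 in Lamp1-enriched cells and passed 2-fold in none, the value in Lamp1-depleted cells becoming negative under the shift of total counts only, -0.72. Between sorted cells 3 of 17 were higher and 3 lower in sham (median -0.61), beside 27.5% and 25.2% over all genes. In BLM 1 was higher and 7 lower (-0.20), beside 34.4% and 22.6%, and 3 and 4 under total counts only (median 0.36). The substrates again went apart, with Irs1 at log2 2.57 and 2.90 and Irs2 at -3.68 and -3.33. The quasi-likelihood test called 3 of 17 higher and 7 lower in Lamp1-enriched cells, beside 21.5% and 19.2% over all genes.

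Of a list of 20 other type 2 ligands and lymphocyte genes, Lamp1-enriched cells had 12 of 16 counted genes lower and 2 higher in sham (median log2 -2.61), beside 25.2% and 27.5% over all genes. In BLM 12 of 17 were lower and 3 higher (-2.56), beside 22.6% and 34.4%, and the quasi-likelihood test called 10 of 16 lower and 2 higher, beside 19.2% and 21.5%. T cell markers were lower in the same libraries, 7 of 7 in each treatment, and their part was not tested. Klrg1, a receptor of activated lymphocytes, had 5 against 185 reads in sham (log2 -5.08), and Bcl11b, a factor of T cells and innate lymphoid cells, Ccr8, a chemokine receptor, and Icos, a costimulatory receptor, were at -4.57, -4.34 and -4.30 in sham and -5.00, -4.34 and -4.01 in BLM. The alarmin Il25 and the cytokine Il9 had 0 reads in all 6 libraries. In BLM over sham 3 of 16 genes were higher and 2 lower in unsorted cells (median 0.33), 3 of 17 higher and 2 lower in Lamp1-depleted cells (-0.11), and 3 of 16 higher and 0 lower in Lamp1-enriched cells (-0.11). Over all genes the shares higher and lower were 13.9% and 16%, 13.7% and 22.3%, and 10.2% and 7.81% in the same order. Counts this small are not read against those shares. Under total counts only, 1 gene of the list was higher and 6 lower in Lamp1-depleted cells. The higher ones in unsorted cells were Arg1, an arginine-degrading enzyme, with 2020 against 59 reads (log2 5.38), Areg, the repair factor amphiregulin, with 765 against 85 reads (3.46), and Hpgds, a prostaglandin D synthase, with 706 against 156 reads (2.47).

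Of the genes that IL-4 and IL-13 are known to induce, 14 of 23 counted in unsorted cells were higher in BLM and 2 lower (median log2 1.57), beside 13.9% and 16% over all genes. In Lamp1-enriched cells 11 of 22 were higher and 2 lower (0.92), beside 10.2% and 7.81%. In Lamp1-depleted cells 11 of 21 were higher and 1 lower (1.07), beside 13.7% and 22.3%, but only 5 were higher and 3 lower under total counts only, with a median of 0.35. The higher ones in unsorted cells included Arg1 (above), Mrc1, the mannose receptor of macrophages, with 20468 against 3576 reads (2.82), Alox15, a lipoxygenase, with 529 against 94 reads (2.78), and Chil3, a chitinase-like protein of macrophages, with 68856 against 15211 reads (2.48), some of which may belong to its close copy Chil4. In Lamp1-enriched cells Alox15 had 88 against 6 reads (log2 3.52), Arg1 445 against 42 reads (3.14) and Retnla, a secreted macrophage protein, 266 against 55 reads (2.02), and in Lamp1-depleted cells the chemokine Ccl17 had 72 against 12 reads (3.64). Postn, which IL-13 induces in fibroblasts and epithelium, was lower in BLM, at log2 -1.85 in unsorted and -1.52 in Lamp1-enriched cells. Several of these genes are also macrophage genes in general, Mrc1 is in the macrophage marker list, and Arg1, Socs1 and Cish stand in more than one of the lists. The macrophage marker sums are those given beside Il13ra1, and their part in the counts was not tested. Between sorted cells the list had 6 of 21 higher and 7 lower in sham (median 0.07), 5 of 23 higher and 5 lower in BLM (0.02; 8 and 5 under total counts only), and 4 of 22 higher and 5 lower in the quasi-likelihood test. Over all genes the shares are those given for the partner chains, 27.5% and 25.2%, 34.4% and 22.6%, and 21.5% and 19.2%.

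**Figure D3:**
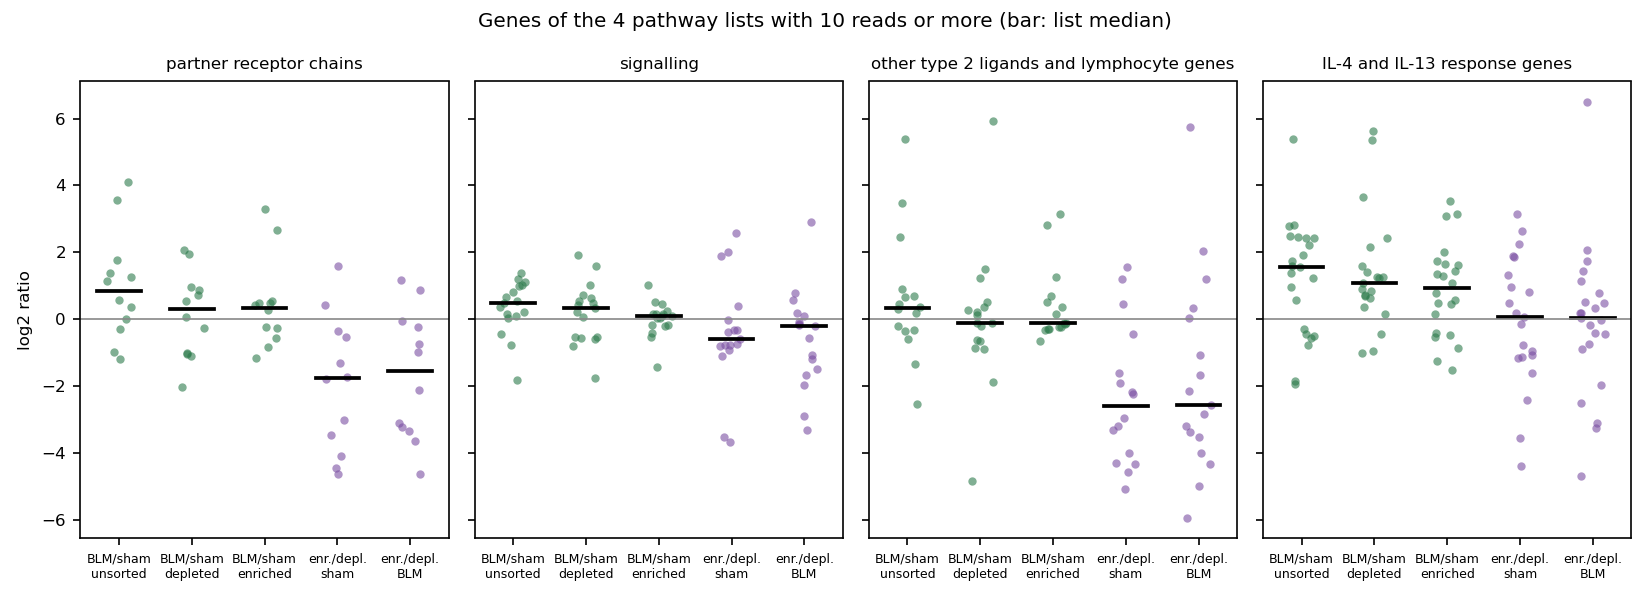
Log2 ratios of the genes of the 4 lists in the 5 comparisons, each point a gene with 10 reads or more in the higher library and each bar the list median. The response genes have medians of 1.57, 1.07 (0.35 under total counts only) and 0.92 in the 3 BLM over sham comparisons, and the partner chains and lymphocyte genes have medians between -2.61 and -1.55 in the sorting comparisons.

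Cell types known as sources or targets of type 2 cytokines were looked for through their markers. Eosinophil markers summed to 26.9 CPM in sham unsorted and 44.5 CPM in BLM unsorted cells and to 4.92 to 7.13 CPM in the sorted libraries, and most of this came from Siglecf and Ear1, which alveolar macrophages also express. The granule genes that define eosinophils were near 0, with Epx at 0 to 4 reads and Prg2 at 0 to 9 reads. Basophil markers summed to 0.238 to 1.39 CPM, and Mcpt8, their defining protease, had 8, 13 and 6 reads in the sham libraries (unsorted, depleted, enriched) and 0 reads in all BLM libraries, while Cd200r3, the most counted of the list in unsorted cells, went from 28 to 41 reads there. The mast cell sum, 60.5 to 1110 CPM, came almost wholly from Kit, which endothelium also expresses, and Tpsab1 had 0 reads throughout, while Cpa3 had 140 reads in sham unsorted, 26 in BLM unsorted and 0 in BLM Lamp1-depleted cells. Another mast cell protease, Cma1, was highest in Lamp1-depleted cells, with 132 reads in sham Lamp1-depleted against 17 in unsorted and 11 in Lamp1-enriched cells, and 29 against 7 and 4 reads in BLM. Fibroblast markers, a possible source of Il33 and Tslp, summed to 380, 70.4 and 191 CPM in sham (unsorted, depleted, enriched) and to 711, 167 and 731 CPM in BLM. In unsorted cells 4 of the 7 were higher in BLM and 3 lower, with Col1a1 at 92.4 CPM in sham and 415 CPM in BLM and Col1a2 at 70.2 and 186 CPM, whereas Pdgfra went from 131 to 42.8 CPM and Dpt from 34.2 to 9.1 CPM. Alveolar type 1 markers summed to 31.8 to 254 CPM and mesothelial markers to 1.3 to 25.3 CPM over the 6 libraries, dendritic cell markers to 165 to 562 CPM, and NK cell markers to 161 and 53.3 CPM in sham and BLM Lamp1-depleted cells against 3.78 to 20.4 CPM elsewhere. The dendritic cell sum came from different genes in different libraries. In sham Lamp1-depleted cells Ccr7 made up 510 of 562 CPM, with Flt3 at 6.78 CPM. In sham Lamp1-enriched cells Zbtb46 and Clec9a had 118 and 110 of 261 CPM. The sum is therefore not read as a level of dendritic cells. The part of these cell types in the levels of the 10 genes was not tested.

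**Figure D4:**
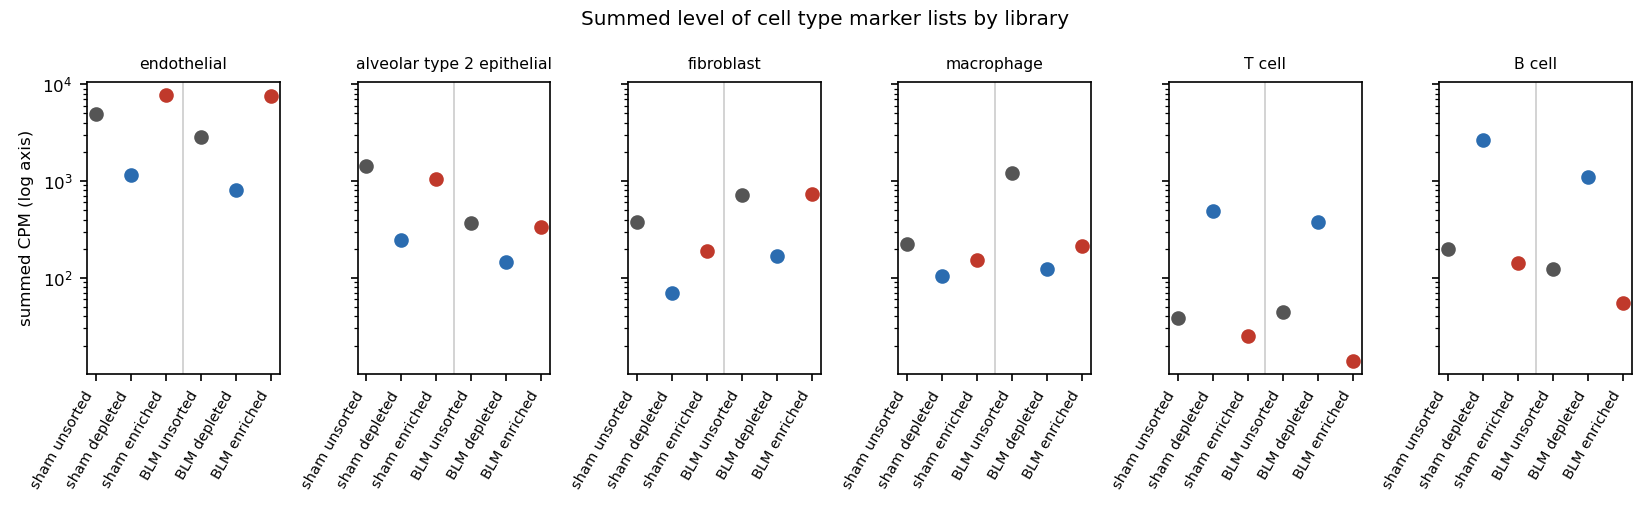
Summed CPM of 6 cell type marker lists in each library on a log axis, with grey unsorted, blue Lamp1-depleted and red Lamp1-enriched cells. T and B cell markers are highest in both Lamp1-depleted libraries, endothelial markers highest in both Lamp1-enriched libraries, and macrophage markers highest in BLM unsorted cells at 1200 CPM.

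Finally, for each of the 6 members with 50 reads or more in a library, the genes with the most similar log2 CPM across the 6 libraries were listed among 17935 genes, as a description over 6 points that share libraries. For Il33 these were Dock4 (Pearson r 0.9992), Fsd1l (0.9981) and Id4 (0.9977). For Tslp they were Tbx5 (0.9996), Higd1b (0.9987) and Gm42899 (0.9977), and for Il1rl1 they were Il2ra (0.9978), Cerkl (0.9975) and Bri3bp (0.9963). Il13ra1 was followed most closely by Uap1 (0.9992), Atp6v1a (0.9966) and Zfp568 (0.9933), and Gata3 by Dcaf8 (0.9964), Ncoa5 (0.9921) and Bcl7b (0.9875). The best matches of Il4ra were looser, with Rars2 at 0.9766, Klhl36 at 0.9764 and Gm7972 at 0.9741. Among the members themselves, Il33 and Tslp had r 0.93, Il33 and Il1rl1 r -0.86, and Tslp and Il1rl1 r -0.91. With so many genes and so few points, high values of this kind arise readily.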

How the data were processed

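RNA from mouse lung cells was sequenced in 6 libraries, 1 per condition. The authors deposited whole-number read counts for each gene, not normalized. The submitters' processing notes name Trimmomatic 0.36, STAR 2.5.2b, Subread 1.5.2 with featureCounts, DESeq2 and the build GRCm38. Annotation and strand setting are not given in the sources used here. Samples were grouped by their labels. The members, the pathway and marker lists and the rules for named genes were chosen with earlier results of these data known. All members are named, and of each pathway list at most 4 genes with 50 reads or more and the largest ratios per comparison, together with Crlf2, Il1rap, Stat6, Il25, Il9 and Postn, which were picked with their values seen, as was Gm26917.

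Of 49315 genes, 49056 were found by identifier in GENCODE M21, whose names and exon lengths were used. Total counts and TMM factors (0.699 to 1.19) came from edgeR 4.0.16 under R 4.3.3, and ratios, with 0.5 reads added as a prior count, from pandas 2.3.3, scipy 1.17.1 and numpy 2.4.6 under Python 3.11.15. A gene needed 10 reads in the higher library, a library with 0 reads gave a bound at a floor of 3 reads, 1 to 3 reads gave a ratio with its interval, and no ratio was formed where both libraries had 3 reads or fewer. Intervals of ratios are Clopper-Pearson intervals at 95%, and those of RPKM are Poisson intervals. The quasi-likelihood test left 1 degree of freedom for the residuals. Its prior degrees of freedom were infinite and its biological coefficient of variation was 0.316, with Benjamini-Hochberg adjustment over 20593 genes and a threshold of 0.05. Programs were tested on simulated data. Alternatives were total counts only, DESeq2 1.42.0 size factors and Wald test, other prior counts, read minimums and folds, thinned counts, and all 6 libraries. Leaving out the BLM Lamp1-depleted library, and total counts for the pathway lists, were added after seeing the data.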

Additional observations from a re-analysis of the deposited data

Results flagged for a closer look

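In several cases a gene moved one way in one pair of libraries and the other way in another pair, with both counting intervals excluding 0. With 1 library per condition these differences between ratios were not tested. For BLM over sham, the log2 ratio of Il1rl1 in unsorted cells exceeded that in Lamp1-depleted cells by 1.15, and the Lamp1-depleted minus Lamp1-enriched difference was -0.71. For Gata3 the unsorted minus Lamp1-depleted difference was -1.32 and the Lamp1-depleted minus Lamp1-enriched difference 1.17. For Il13ra1 the same differences were 1.84 and -0.84. For Lamp1-enriched over Lamp1-depleted, the sham minus BLM difference was 1.17 for Gata3 and -0.42 for Il4ra. Each of these 8 differences involves the BLM Lamp1-depleted library, in which 38.4% of reads fell on Gm26917, and the part of that library's makeup was not tested. Under total counts only, the opposite signs remained for Il1rl1 and Il13ra1 in BLM over sham and for Il4ra between sorted cells, but not for Gata3.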

How the results depend on the processing

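Of 46 alternative values of the member counts, 39 stayed within 1.5 times the main count. With 1 read asked for, members at least 2-fold apart in Lamp1-enriched cells, BLM over sham, numbered 3 in place of 1. With 50 reads asked for, those in Lamp1-depleted cells numbered 0 in place of 3, and those between sorted BLM cells 4 in place of 7. At 4-fold, the count was 2 in place of 4 in unsorted cells, and 0 in both Lamp1-depleted (from 3) and Lamp1-enriched cells (from 1), BLM over sham. With total counts only, the quasi-likelihood test called 3 members in place of 5, Il13 (adjusted p 0.144) and Il13ra1 (0.154) being lost, and over all genes 2872 higher and 1564 lower in place of 4422 and 3964. The fit to the 5 libraries without BLM Lamp1-depleted cells, which leaves a single Lamp1-depleted library, called 4 members, and Il4ra turned from log2 0.04 to -0.10, neither value being called. Scaling by total counts moved all log2 ratios of BLM over sham by -0.26 in unsorted, -0.72 in Lamp1-depleted and 0.01 in Lamp1-enriched cells, and moved them by -0.17 and 0.56 for Lamp1-enriched over Lamp1-depleted in sham and BLM. Of 284 alternative values for single genes and pathway lists, 246 were alike, 29 moved, 7 lost and 1 gained a call, and 1 reversed. No replicate could be left out of a ratio of 2 libraries. Depth limits Il13, Il13ra2, Il5 and Il4 most, where 3 reads correspond to 0.055 to 0.142 CPM.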
